A study of Solanum lycopersicum with 18 samples.

Results

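Heat stress factors (HSFs) are the transcription factors that bind heat shock elements in promoters and switch on chaperone genes when plants are heated. Plants carry many of them. The activators that drive the heat response are class A members. The class B and C members cannot activate genes by themselves, and several class B members repress heat-inducible genes or assist class A members at promoters. The 7 genes described here are the class B and C factors HSFB1, HSFB2a, HSFB2b, HSFB3a, HSFB3b, HSFB5 and HSFC1 of tomato. They were chosen as a gene family by identifier, at a time when earlier results of these data were known. They are 7 of the 35821 genes in the deposited table.

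The RNA came from the fourth leaf of 4-week-old tomato plants (Solanum lycopersicum) in the Moneymaker background. The plants grew at 24 °C and were sampled before heat stress (0 h) or after 1 h at 45 °C (1 h). The genotypes were the wild type (WT) and a pair of hsfa1a lines labelled as RNAi knock-down lines, which carry a hairpin RNA construct against HSFA1a, the class A factor described as the master regulator of the heat response. Each of the 6 conditions held 3 libraries, described as biological replicates, and the tested comparisons ask how heat and the hsfa1a construct bear on each factor. The column names call the lines CS2 and CS3, and these names are used here because nothing pairs them with the numbered lines of the labels. The promoter of the construct is not given in the sources used here, and each line is a single transgenic line.

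Library totals lay between 1713285 and 3669618 counts. The third CS2 library at 1 h held 3669618 counts, whereas the other 1 h libraries held between 1713285 and 2393059. HSFA1a was not called lower at either time in libraries that carry the CS2 and CS3 labels. Before heat its mean was 73.8 CPM for WT, 67.4 for CS2 and 76.6 for CS3, with overlapping ranges. At 1 h edgeR placed it above WT by 0.60 log2 units for CS2 (adjusted p = 0.00672). For CS3 this excess was 0.72 (adjusted p = 0.00303, edgeR). After heat HSFA1a stood at 70.5 ± 8.19 CPM for WT, 106 ± 17.7 for CS2 and 116 ± 18.2 for CS3 (SD, n = 3), and reads of the native transcript and of the construct cannot be told apart. CS2 and CS3 therefore stand throughout for the libraries so labelled. CPM values are counts brought to a common library total, taken over the tested genes and scaled by TMM (a normalization by trimmed means that makes libraries comparable). As a check of the tissue, 2 of 3 Rubisco small subunit identifiers, which mark green leaf cells, were in the table, and both were detected in every library. Their summed level was 386.5 to 579.2 CPM at 0 h and 482.9 to 918.9 CPM at 1 h. In leaf tissue, fewer cells of a type and less RNA per cell cannot be told apart.

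Of the 7 factors, 4 had at least 50 counts in at least 2 libraries and entered the test over 15312 genes. HSFB2a passed this minimum in all 18 libraries, HSFB1 and HSFB2b in 13 each, and HSFC1 in 10, of which 9 were the 1 h libraries. HSFB3a, HSFB3b and HSFB5 did not pass it in any library. HSFB1 is Solyc02g090820.3 (chromosome 2, 52031596 to 52034946, minus strand of the M82 assembly). HSFB2a is Solyc03g026020.3 (chromosome 3, 3392765 to 3394494, plus strand). HSFB2b is Solyc08g080540.3 (chromosome 8, 64645143 to 64646529, minus strand). HSFC1 is Solyc12g007070.2 (chromosome 12, 1519971 to 1521647, plus strand). No other gene of the table overlapped any of the 7 spans. The nearest neighbour, 1517 bases away, was next to HSFB1.

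Heat raised each of the 4 tested factors in WT, in CS2 and in CS3. These calls used edgeR's quasi-likelihood test and Benjamini-Hochberg adjustment over all tested genes. HSFC1 entered the test through its 1 h libraries, because at 0 h only the third CS3 library reached the minimum count. Without a low-count filter its rise was still called in WT (log2 fold change 1.68, adjusted p = 1.46e-06, edgeR). The same held in CS2 (2.55, adjusted p = 1.77e-10) and CS3 (2.35, adjusted p = 1.4e-09). Among all tested genes, 24.2% were called higher at 1 h in WT, 28.7% in CS2 and 26.7% in CS3, and 14.2% were higher in WT, CS2 and CS3 alike. The largest fold of the 4 was that of HSFB1 in WT and that of HSFB2b in CS2 and CS3, and in CS3 the 95% intervals of HSFB2b (3.54 to 4.71 on the log2 scale) and HSFB1 (3.05 to 4.42) overlapped. After 1 h, HSFB1 was 4.79-fold lower in CS2 than in WT, while HSFB2b was 1.97-fold higher in CS2 and 2.42-fold higher in CS3.

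**Figure D1:**
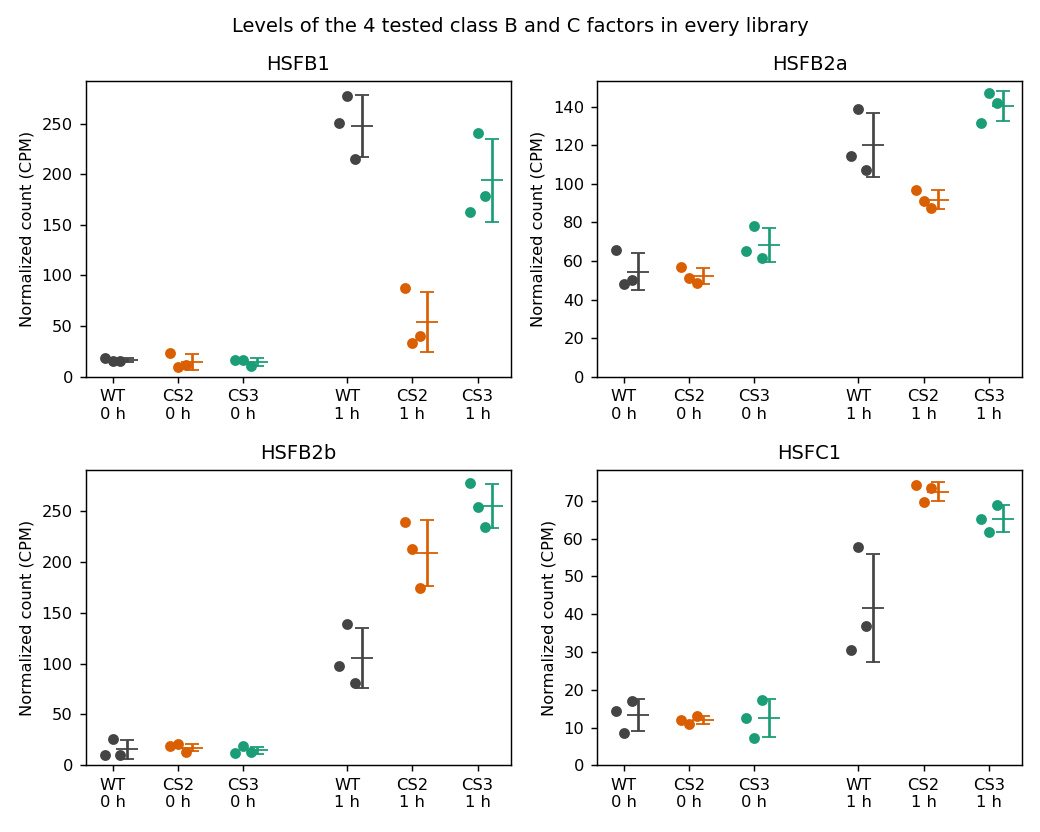
Normalized counts (CPM) of HSFB1, HSFB2a, HSFB2b and HSFC1 in each of the 18 libraries, as points, with the mean and SD of the 3 libraries of a condition beside them. For HSFB1 the 3 CS2 libraries at 1 h sit between 33.3 and 87.5 CPM, below all WT libraries at 1 h. For HSFB2b the 1 h libraries of both lines lie above all 1 h WT libraries. Over all tested genes these patterns held for 22.8% and 15.9%. At 0 h the HSFB2b ranges overlap.

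HSFB1 works in tomato as a partner of class A factors and in Arabidopsis mainly as a repressor. At 0 h its level was 18.9, 15.5 and 15.5 CPM for WT, 23.4, 9.31 and 11.3 CPM for CS2, and 16.7, 16.5 and 10.3 CPM for CS3. These ranges overlapped, and the spread was widest in CS2. After heat its level was 250.4, 276.8 and 215.4 CPM for WT, 87.5, 33.3 and 40.3 CPM for CS2, and 163, 240.6 and 179 CPM for CS3. The CS2 libraries lay below every other 1 h library, while the CS3 range overlapped that of WT. Over all tested genes, every CS2 library lay below every WT library for 22.8% and below every CS3 library for 10%.

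The heat response of HSFB1 was 14.8-fold in WT, or 3.89 on the log2 scale (standard error 0.32, adjusted p = 1.83e-08, edgeR). Only 123 of the 15312 tested genes had a larger rise in WT. In CS3 the log2 fold change was 3.73 (standard error 0.325, adjusted p = 3.84e-08, edgeR), and in CS2 it was 1.80 (standard error 0.336, adjusted p = 0.000217, edgeR). Tested as the difference itself, the log2 response of CS2 minus that of WT was −2.09 (95% interval −3.06 to −1.11, adjusted p = 0.00432, edgeR), and 9.35% of all tested genes were called lower in this comparison. For CS3 the difference was −0.16 (95% interval −1.12 to 0.81, adjusted p = 0.864), which was not called. The mean of both lines minus WT was −1.12 (adjusted p = 0.0504, edgeR), which was not called. It averages CS2, where the difference was called, and CS3, where it was not. DESeq2 called it (−1.10, adjusted p = 0.0324). The alternatives called it in 11 cases and left it uncalled in 14, with adjusted p from 0.00601 to 0.106 in leave-outs (edgeR). Each library was also placed along the WT heat response, over the 7563 genes called in it. The WT libraries themselves set the ends of this scale. At 1 h WT stood at 1.02, 1.02 and 0.959, CS2 at 0.785, 0.661 and 0.618, and CS3 at 0.756, 0.815 and 0.812. Whether HSFB1 in CS2 fell short beyond this was not tested.

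At 1 h HSFB1 stood at 248 ± 30.8 CPM for WT, 53.7 ± 29.5 CPM for CS2 and 194 ± 41.0 CPM for CS3 (SD, n = 3). The log2 fold change of CS2 against WT was −2.26 (standard error 0.293, adjusted p = 1.38e-05, edgeR), and 101 tested genes lay further below. CS2 was also below CS3 by −1.91 (standard error 0.294, adjusted p = 0.00182, edgeR). CS3 against WT gave −0.35 (95% interval −0.91 to 0.21, adjusted p = 0.354, edgeR). The first CS2 library was the highest of the 3, and without it the difference between CS2 and WT was −2.75. Without the third CS2 library, the one with the largest total, HSFB1 was still lower in CS2 than in WT (−2.07, adjusted p = 0.000254, edgeR) and than in CS3 (−1.72, adjusted p = 0.0239, edgeR).

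HSFB2b is one of the class B factors that repress heat-inducible genes in Arabidopsis. At 0 h its level was 10.3, 26.0 and 10.7 CPM for WT, 18.7, 20.8 and 13.3 CPM for CS2, and 12.5, 18.6 and 13.1 CPM for CS3. The second WT library was the highest of all 0 h libraries, and the ranges overlapped. After heat it was 97.3, 138.7 and 81.2 CPM for WT, 239, 213 and 175 CPM for CS2, and 277, 254 and 234 CPM for CS3. After heat all libraries of both lines exceeded all WT libraries, a pattern that 15.9% of all tested genes showed.

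The heat response of HSFB2b was 6.56-fold in WT (log2 fold change 2.72, standard error 0.28, adjusted p = 3.03e-07, edgeR). It was 11.7-fold in CS2 (3.55, standard error 0.269, adjusted p = 7.12e-09) and 17.4-fold in CS3 (4.13, standard error 0.28, adjusted p = 1.53e-09). The second WT library at 0 h moved the WT value most, to a log2 fold change of 3.33 without it. At 1 h HSFB2b was higher than in WT by 0.98 on the log2 scale in CS2 (standard error 0.237, adjusted p = 0.0038, edgeR) and by 1.27 in CS3 (standard error 0.237, adjusted p = 0.000784, edgeR). Both comparisons share the WT libraries. Among all tested genes, 17.8% were called higher in CS2, 11.9% in CS3 and 9.34% in both. The difference between CS2 and CS3 was −0.30 (95% interval −0.77 to 0.18, adjusted p = 0.559, edgeR), which was not called.

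Tested as the difference between responses, HSFB2b rose more in CS3 than in WT by 1.41 on the log2 scale (95% interval 0.57 to 2.25, adjusted p = 0.0301, edgeR), where 4.96% of all tested genes were called higher. This call ended with the second WT library at 0 h left out (0.80, adjusted p = 0.166) and without any of WT replicate 1 or 3 at 1 h, CS3 replicate 1 or 3 at 0 h, or CS3 replicate 1 at 1 h (adjusted p between 0.0588 and 0.0775). For CS2 the difference was 0.84 (95% interval 0.02 to 1.66, adjusted p = 0.139, edgeR), which was not called, and 0.22 (adjusted p = 0.694) without the second WT library at 0 h. For the mean of both lines it was 1.12 (95% interval 0.40 to 1.85, adjusted p = 0.0266, edgeR), against 10.7% of all tested genes called higher, and 0.51 (adjusted p = 0.283) without the second WT library at 0 h. Without WT replicate 1 or 3 at 1 h it was not called either (adjusted p = 0.0617 and 0.0802).

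**Figure D2:**
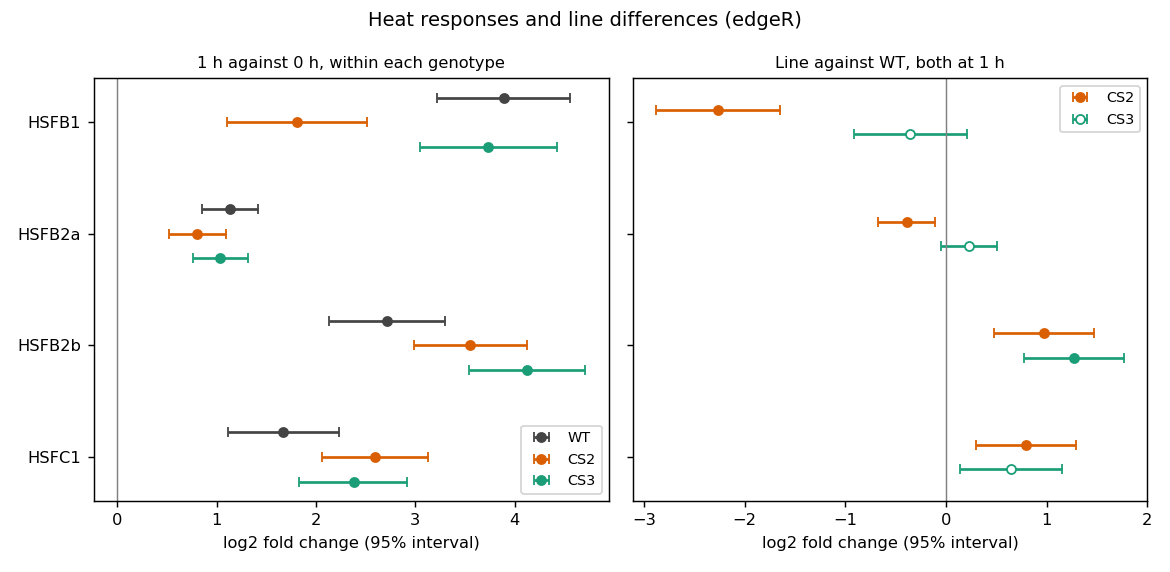
Log2 fold changes with 95% intervals from edgeR for the 4 tested factors, on the left for 1 h against 0 h within WT, CS2 and CS3, and on the right for each line against WT at 1 h, with filled points for adjusted p under 0.05. On the left all points lie to the right of 0, and on the right HSFB1 in CS2 lies furthest to the left at −2.26 and HSFB2b in CS3 furthest to the right at 1.27.

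HSFB2a is a class B factor closely related to HSFB2b. Before heat it stood at 65.5, 47.9 and 50.1 CPM for WT, 56.7, 51.3 and 48.8 CPM for CS2, and 65.4, 78.3 and 61.6 CPM for CS3. After heat it stood at 114, 138.7 and 107 CPM for WT, 96.9, 91.2 and 87.3 CPM for CS2, and 132, 147 and 142 CPM for CS3. It had the smallest response of the 4, and at 1 h the CS2 libraries lay below all WT libraries, as for 22.8% of all tested genes, and below all CS3 libraries, as for 10%.

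The response of HSFB2a was 2.20-fold in WT (log2 fold change 1.14, standard error 0.137, adjusted p = 1.96e-06, edgeR), 1.75-fold in CS2 (0.81, adjusted p = 9.06e-05) and 2.05-fold in CS3 (1.04, adjusted p = 4.73e-06). At 1 h it was lower in CS2 than in WT by −0.39 (95% interval −0.67 to −0.11, adjusted p = 0.0326, edgeR), and 15.3% of all tested genes were called lower. This call ended without WT replicate 1 (adjusted p = 0.0503) or 2 (0.164), and without CS2 replicate 2 (0.082) or 3 (0.101). In CS3 the value was 0.23 (95% interval −0.05 to 0.50, adjusted p = 0.225), with overlapping ranges. CS2 was below CS3 by −0.62 (standard error 0.135, adjusted p = 0.0186, edgeR). HSFB2a and HSFB1 were the members called lower in this comparison, as were 1.31% of all tested genes (200 genes, and 64 to 303 with single libraries left out), and for HSFB2a the call ended without replicate 2 or 3 of either line (adjusted p between 0.0678 and 0.106). At 0 h HSFB2a was lower in CS2 than in CS3 by −0.38 (95% interval −0.67 to −0.10, adjusted p = 0.422, edgeR), which was not called. The heat response of HSFB2a was not called different from that of WT, with −0.33 for CS2 (adjusted p = 0.242) and −0.10 for CS3 (adjusted p = 0.786).

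HSFC1 is the class C factor of the set. At 0 h it stood at 14.3, 8.58 and 16.9 CPM for WT, 11.97, 10.9 and 12.98 CPM for CS2, and 12.5, 7.38 and 17.4 CPM for CS3. At 1 h it stood at 30.5, 57.9 and 36.9 CPM for WT, 74.2, 69.6 and 73.4 CPM for CS2, and 65.1, 61.8 and 68.9 CPM for CS3. The second WT library lay well above the other WT libraries. All libraries of both lines lay above all WT libraries, as for 15.9% of all tested genes.

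HSFC1 rose 3.18-fold in WT (log2 fold change 1.67, standard error 0.266, adjusted p = 4.83e-05, edgeR), 6.04-fold in CS2 (2.60, adjusted p = 1.91e-07) and 5.20-fold in CS3 (2.38, adjusted p = 6.7e-07). At 1 h it was higher in CS2 than in WT by 0.79 (95% interval 0.30 to 1.29, adjusted p = 0.0148, edgeR), a call that ended without WT replicate 1 (adjusted p = 0.0836) or 3 (0.0695). In CS3 the value was 0.65 (95% interval 0.14 to 1.15, adjusted p = 0.0569, edgeR). It was not called, although the libraries did not overlap. Every CS3 library lay above every WT library for 23.8% of all tested genes. CS3 was called with DESeq2 (adjusted p = 0.0474) and without the second WT library (0.95, adjusted p = 0.0121 with edgeR). It weakened without WT replicate 1 (0.47, adjusted p = 0.222, edgeR) or 3 (0.56, adjusted p = 0.187). The alternatives called it in 4 cases and left it uncalled in 10. The mean of both lines was above WT by 0.72 (standard error 0.212, adjusted p = 0.0129, edgeR), where 17.7% of all tested genes were called higher, and this call too ended without WT replicate 1 or 3 (adjusted p = 0.0936 and 0.0767). The differences between responses, 0.93 for CS2 (adjusted p = 0.0865) and 0.71 for CS3 (adjusted p = 0.244), were not called. That for CS2 was called without the second WT library at 0 h (1.18, adjusted p = 0.0281, edgeR) or at 1 h (1.23, adjusted p = 0.0228). CS2 against CS3 gave 0.15 (95% interval −0.34 to 0.63, adjusted p = 0.802).

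Before heat, none of the 4 tested factors was called in CS2 against WT, in CS3 against WT or in CS2 against CS3, by edgeR or by DESeq2. Few genes were called at 0 h, with 0.0522%, 0.229% and 0.0261% of all tested genes in these comparisons. At an unadjusted p under 0.05 edgeR gave 0 factors for CS2 against WT and 1 each for CS3 against WT and CS2 against CS3, which was HSFB2a both times. Over all tested genes these shares were 3.51%, 12.9% and 11.1%. HSFB2a was 0.33 higher in CS3 than in WT on the log2 scale (95% interval 0.04 to 0.61, adjusted p = 0.34, edgeR). For HSFB1 the 95% intervals of the 3 comparisons reached from −0.97 to 0.79, and differences within them cannot be told from 0.

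HSFB3a, HSFB3b and HSFB5, class B members whose role under heat is less well described, were at or near 0 in these leaves. HSFB3a (Solyc04g016000.3, chromosome 4, 6711879 to 6715425, minus strand) had 44 counts in all, spread over 14 libraries. At 0 h it had 3, 0 and 1 counts for WT, 5, 0 and 5 for CS2, and 6, 2 and 7 for CS3. At 1 h it had 0, 2 and 3 counts for WT, 1, 1 and 0 for CS2, and 1, 1 and 6 for CS3. The ranges overlapped throughout, and an exact permutation test of log2(CPM + 1) between the times, with labels exchanged within genotype (8000 assignments, two-sided), gave p = 0.692. HSFB3b (Solyc10g079380.2, chromosome 10, 61679572 to 61680883, plus strand) had 5 counts in all, 1 in each of 5 libraries, of which 3 were WT libraries and 2 were CS3 libraries at 0 h. HSFB5 (Solyc02g078340.4, chromosome 2, 42665400 to 42667798, plus strand) had 2 counts, 1 in the third CS3 library at 0 h and 1 in the first WT library at 1 h. A count of 0 allows up to 3 counts in a library, or 0.781 to 2 CPM, for counting error only, and no fold is given for these genes.

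Levels were compared between genes per kilobase of the deposited gene span, which includes introns. In WT at 0 h HSFB2a led with 31.5 ± 5.57 CPM per kb (SD, n = 3). HSFB2b (11.3 ± 6.47), HSFC1 (7.91 ± 2.55) and HSFB1 (4.97 ± 0.598 CPM per kb) followed, and each of these did not differ from the next beyond their spread. In WT at 1 h HSFB2b (76.2 ± 21.4), HSFB1 (73.9 ± 9.19) and HSFB2a (69.4 ± 9.57 CPM per kb) were within their spread of each other, and HSFC1 stood lower at 24.9 ± 8.55 CPM per kb.

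The order at 1 h was another in the lines. HSFB2b led in CS2 with 150.4 ± 23.2 and in CS3 with 184 ± 15.4 CPM per kb. HSFB1 was last of the 4 tested factors in CS2 at 16.0 ± 8.80 CPM per kb, and below HSFB2a but above HSFC1 in CS3 at 57.9 ± 12.2. HSFB2b made up 30.9% of the summed level of the 4 in WT, 57.1% in CS2 and 50.8% in CS3 (means of 3 libraries), and HSFB1 made up 30.5%, 5.93% and 16.0%. The summed level at 1 h was 244 ± 47.2 in WT, 263 ± 33.4 in CS2 and 362 ± 15.8 CPM per kb in CS3.

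**Figure D3:**
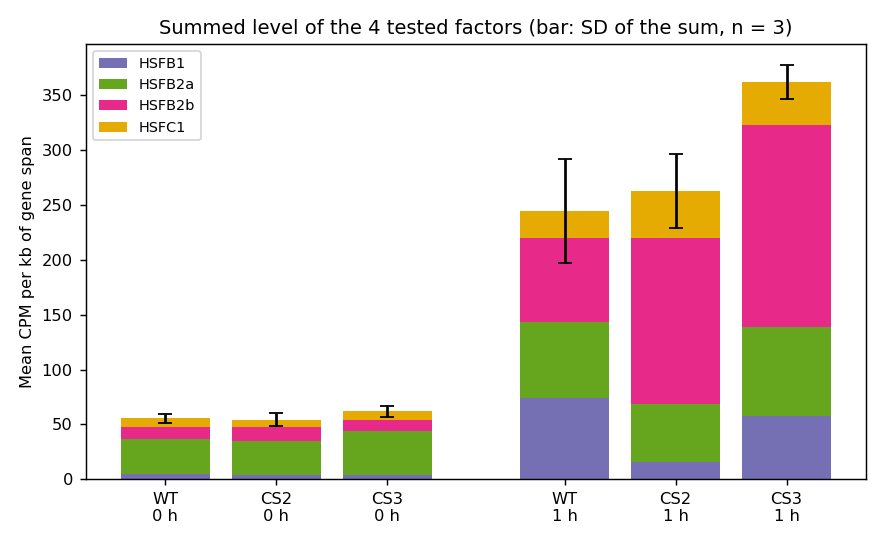
Mean level of the 4 tested factors in CPM per kb of gene span, stacked by gene for each genotype and time, with the SD of the sum over 3 libraries as the error bar. At 0 h HSFB2a makes up 55.7% to 63.7% of the sum, and at 1 h HSFB2b makes up 57.1% in CS2 and 50.8% in CS3 against 30.9% in WT.

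The ratio of HSFB1 to HSFB2b was looked at after the values of both were known and is given as a description. The scaling of a library cancels in it, but the limit that duplicate removal sets on counts does not. The highest count per base of span was 0.444 for HSFB2b and 0.163 for HSFB1. The log2 ratio of counts at 1 h was 1.36, 1.00 and 1.41 for WT, −1.45, −2.67 and −2.12 for CS2, and −0.76, −0.08 and −0.39 for CS3. All WT libraries thus held more counts of HSFB1 than of HSFB2b, and all libraries of both lines held fewer. At 0 h the means were 0.22 ± 0.86 in WT, −0.36 ± 0.747 in CS2 and −0.03 ± 0.404 in CS3 (SD, n = 3), with overlapping ranges.

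**Figure D4:**
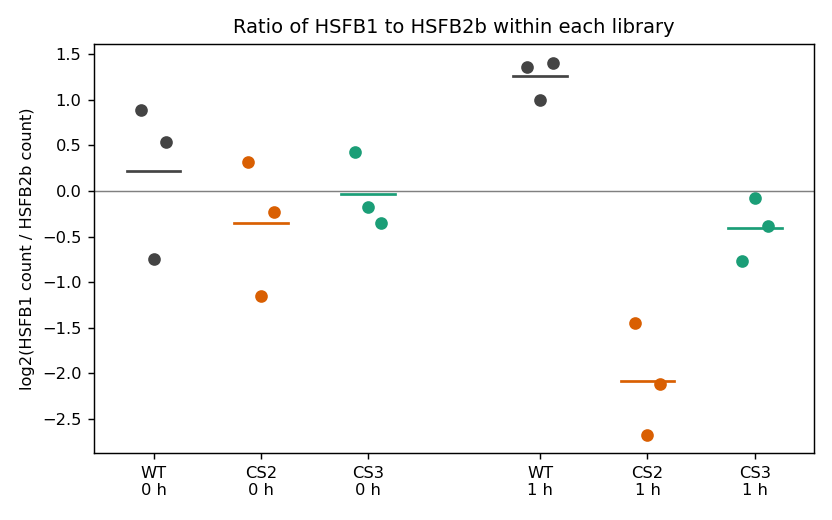
Log2 ratio of HSFB1 to HSFB2b counts within each library (points) and the mean of 3 libraries (bars), by genotype and time. Counts were not divided by gene span, so the position of 0 depends on gene length. At 1 h the WT libraries lie between 1.00 and 1.41 and those of CS2 and CS3 between −2.67 and −0.08, while at 0 h the genotypes overlap.

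Class A factors were counted beside them from a list of 15 identifiers taken from general knowledge of the tomato family, of which 12 were tested. In the heat response 9 of the 12 were called higher and 0 lower in WT, with a median log2 fold change of 1.28. In CS2 8 were higher and 1 lower (median 0.72), and in CS3 9 were higher and 0 lower (median 1.11). Of all tested genes, WT had 24.2% higher and 25.2% lower, CS2 28.7% and 26.2%, and CS3 26.7% and 26.5%. Against WT at 1 h, 2 were higher and 6 lower in CS2 (median −0.49), and 3 were higher and 3 lower in CS3 (median −0.18). HSFA1a, whose reads cannot be told from those of the construct, is on this list. It is among those called higher at 1 h in CS2 (0.60, adjusted p = 0.00672, edgeR) and in CS3 (0.72, adjusted p = 0.00303, edgeR). It also counts among those called higher in the heat responses of CS2 and CS3. For the class B and C factors these comparisons gave 2 higher and 2 lower in CS2 (median 0.20) and 1 higher and 0 lower in CS3 (median 0.44). Of all tested genes, 17.8% were higher and 15.3% lower in CS2, and 11.9% higher and 12.4% lower in CS3, with medians of 0.04 and 0.03.

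The tested genes most like each factor were sought by Pearson correlation of log2 CPM over the 18 libraries, which fall into 0 h and 1 h libraries and so share the heat difference. Their fold changes come from the same libraries, so a likeness between lines and WT is also built in by this choice. For HSFB1 the most alike was Solyc09g075600.3 (chromosome 9, 63665563 to 63665802), with r = 0.987. Its log2 fold changes were 6.62 in the WT heat response, −2.81 in CS2 against WT at 1 h and −0.39 in CS3 against WT. For HSFB2b it was Solyc05g053290.3 (chromosome 5, 66064026 to 66066635), with r = 0.991 and log2 fold changes of 1.64, 0.70 and 0.72. The other 6 genes that the rule picked, 1 more for each of these and 2 each for HSFB2a and HSFC1, had r between 0.97 and 0.984.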

How the data were processed

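The authors trimmed single-end reads of strand-specific libraries (Trimmomatic 0.38), aligned the reads to M82, required a mapping quality of 30, removed duplicates and deposited whole-number counts per gene span (featureCounts 2.0.0, reverse strand, reads with several alignments and reads on overlapping genes admitted). As aligner the notes name Bowtie2 2.3.5, the file header bowtie and the paper STAR. Removing duplicates limits a count by the gene's length. The paper states fewer replicates than the 3 libraries per condition deposited.

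Counts were tested with edgeR 4.0.16 (limma 3.58.1, R 4.3.3), TMM, 1 fit of 6 conditions, a minimum of 50 counts in 2 libraries, and an adjusted p threshold of 0.05. The common dispersion was 0.0223. DESeq2 1.42.0, other scalings and filters, fits of the compared conditions, a correction for positions counted once (filled share up to 0.95), the replicate block and leaving out each library were alternatives. Intervals cover 95%. The pseudocount was 1.

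Members and lists were chosen with earlier results of these data known. All 7 members are named, as are the genes most like HSFB1 and HSFB2b. The rule picked 2 genes for each tested member, but identifiers without names were limited to these. The table gives no gene names, and the member names came with the list of identifiers. RefSeq (SLM_r2.1) matched 0 identifiers and was used for gene order alone: within 60000 bases and a tolerance of 300 bases, 10 of 12 neighbours of its HSFB1 entry fitted Solyc02g090820.3 (best other gene 5) and 11 of 14 fitted HSFA1a as Solyc08g005170.3 (best other gene 6). That tolerance was chosen after wider ones, and with 1500 bases another gene tied with HSFB1 at 11. Sequences were not used here.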

Additional observations from a re-analysis of the deposited data

Results flagged for a closer look

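By the test of the difference itself, the heat response of HSFB1 in CS2 minus that in WT was −2.09 on the log2 scale (adjusted p = 0.00432, edgeR), a call kept with each library left out. Of all tested genes, 9.35% were called lower there. For HSFB2b, CS3 minus WT was 1.41 (adjusted p = 0.0301, edgeR), where 4.96% of all tested genes were called higher. This call ended in 6 of 12 leave-outs, with the lowest value of 0.80 (adjusted p = 0.166) without the second WT library at 0 h, and in a fit of the compared conditions (adjusted p = 0.055). The mean of both lines minus WT was 1.12 for HSFB2b (adjusted p = 0.0266, edgeR), where 10.7% were called higher, and that call ended in 3 of 18 leave-outs, with the lowest value of 0.51 (adjusted p = 0.283) without the same library.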

How the results depend on the processing

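The heat responses of the 4 tested factors in WT, CS2 and CS3 kept their direction and call under all alternatives run, as did HSFB1 and HSFB2b in CS2 against WT, HSFB2b in CS3 against WT, HSFB1 in CS2 against CS3 and HSFB1 in the CS2 minus WT response. Of 832 values of single factors under alternatives, 775 kept direction and call, 22 lost and 20 gained a call, and 15 turned sign.

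For CS3 against WT at 1 h the number of members called was 1, and it was 2 under DESeq2, upper-quartile scaling and a fit of the compared conditions. For the response of CS3 minus WT it was 1, and 0 in a fit of the compared conditions. For the mean of lines minus WT it was 1, and 2 under DESeq2, library size only, no low-count filter, filterByExpr, the position correction and the replicate block. Leaving out single libraries, members called ranged from 2 to 4 for CS2 against WT at 1 h, 1 to 2 for CS3 against WT, 1 to 2 for CS2 against CS3, 1 to 2 for CS2 minus WT, 0 to 1 for CS3 minus WT, 0 to 3 for the mean of lines minus WT and 2 to 3 for the mean of lines against WT.

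All 15 values that turned sign were uncalled in the fit reported and came from leaving out a library. Over these leave-outs, CS2 against WT at 0 h ranged from −0.69 to 0.069 for HSFB1, −0.15 to 0.10 for HSFB2a, −0.10 to 0.75 for HSFB2b and −0.38 to 0.080 for HSFC1. CS3 against WT at 0 h ranged from −0.38 to 0.48 for HSFB2b and −0.37 to 0.19 for HSFC1. CS2 against CS3 at 0 h ranged from −0.50 to 0.27 for HSFB1 and −0.31 to 0.24 for HSFC1. HSFB2a ranged from −0.25 to 0.017 for the response of CS3 minus WT and from −0.16 to 0.034 for the mean of lines against WT at 1 h.

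Same-numbered libraries did not deviate together (r from −0.399 to 0.41, with 13 of 45 pairs over 0.1), so the numbers do not pair them. The replicate block raised the members called in the mean of lines minus WT to 2 (HSFB1 −1.11, adjusted p = 0.0332) and changed no other count of members.

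Scaling by library size only moved the median heat response of all genes to −0.14 in WT, −0.18 in CS2 and −0.19 in CS3, and upper-quartile scaling to −0.11, −0.11 and −0.10. With library size only, the genes called were 2685 higher and 4766 lower in WT (3701 and 3862 with TMM), 3154 and 5383 in CS2 (4397 and 4011) and 2832 and 5389 in CS3 (4086 and 4065). With upper-quartile scaling they were 2872 and 4583 in WT. At 0 h the genes called higher and lower moved by more than 1.5 times, from 5 and 3 to 12 and 13 (DESeq2) or 19 and 16 (no filter) for CS2 against WT, from 21 and 14 to 54 and 74, 51 and 46, 14 and 9 (library size only) or 1 and 0 (compared conditions) for CS3 against WT, and from 2 and 2 to 7 and 3, 6 and 3, or 0 and 0 (compared conditions) for CS2 against CS3. For CS2 against CS3 at 1 h, 160 and 200 became 28 and 64, 33 and 71, 28 and 79, and 51 and 117 without replicate 2 or 3 of CS2 and replicate 2 or 3 of CS3, and 214 and 303 without CS2 replicate 1, and DESeq2 called 258 higher. For CS3 against WT at 1 h, 1826 genes called higher became 1131 without WT replicate 3, and for the mean of lines against WT 2711 became 1793. For CS3 minus WT, 760 called higher became 433, 453 and 468 without WT replicate 3 at 0 h, WT replicate 3 at 1 h and CS3 replicate 3 at 1 h, and for the mean of lines minus WT 1637 became 1074 without WT replicate 3 at 0 h. Apart from HSFB2a, counts at 0 h were under 100.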
